A study of Mus musculus with 138 samples.

Results

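Wild-type mouse embryos at the 2-cell stage were compared between the 2 collections in which they had been sampled, to measure how far untreated embryos of one stage differ in the activation of their own genome and in the loss of maternal transcripts. Of the 138 libraries of the series, 62 were in the count table of the maternal deletion experiment, and 26 of these carried the genotype label Smarca5 +/+. The replicate number in the title set the collection, and a minimum of 100000 counts left 8 embryos in collection 1 and 14 of 18 in collection 2, or 22 in all. The libraries had been made from polyadenylated RNA, the RNA arm of a protocol that also reads DNA methylation and accessibility (scNMT-seq), with 1 library per plate well. A library is called an embryo here, because the labels name 2-cell embryos as the tissue and give no cell number per well.

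All 22 embryos carried the genotype Smarca5 +/+ and no treatment, although their titles also name matKO females, as do those of the maternal deletion embryos, Smarca5 +/- offspring of mat KO mothers and WT males. Strain, age and the hour of collection are not given in the labels. The design text describes a replicate of the deletion embryos as a technical one that pools the offspring of several matings, so each collection was treated as 1 pool. Every collection 1 embryo lay in plate column 07 and was read on 1 lane, and every collection 2 embryo lay in columns 01, 02 or 05 and was read on another. Collection, lane and plate column therefore cannot be told apart, and the tests below compare these 2 sets of embryos with the spread between embryos as the error.

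The mouse egg stops transcription before it is fertilized, and its stored RNA carries the embryo through the first division. Stored transcripts are then degraded in waves, while the embryo's genome is switched on in a minor wave in the zygote and a major wave in the 2-cell embryo. A group of genes that includes the Zscan4 cluster and many retroelement-linked families is transcribed only briefly at the 2-cell stage, and genes for nucleolar proteins, proteasome subunits and other basic machinery are among those switched on in the major wave. Embryos of one nominal stage can therefore hold very different RNA, depending on how far each of these processes has gone.

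Collection 1 libraries held 121794 to 1566176 counts. In collection 2, 5 embryos of column 01 held 109007 to 275568 counts, 7 of column 02 held 536224 to 12004992, and the column 05 embryos G05 and H05 held 2041601 and 573476. The 3 wells without an embryo held 453 to 1875 counts. Levels are given in CPM (counts scaled to a library of 1000000) after TMM scaling, which multiplies each library's total by a factor that equalizes the bulk of the genes. The median rank correlation of library pairs was 0.756 within collection 1, 0.673 within collection 2 and 0.433 between them, and the biological coefficient of variation (the spread of a gene between embryos beyond counting error) was 0.587 and 0.888. Mitochondrial transcripts took 4.63 to 17.83% of the counts in collection 1 and 1.29 to 6.34% in collection 2. Of 16 markers of the cumulus and granulosa cells that surround the egg, 0 passed the filter on low counts, which acts on a gene over all libraries. Their score, the mean log2(CPM + 1) over the list, reached 0.68 in A07 and 0.659 in B07 of collection 1, was 0 in C07, E07 and G07, and reached 0.272 in collection 2. Their part in the results was not tested. Of 8 sperm markers 1, Odf2, passed the filter. It was not called over all embryos (log2 difference -0.71) and was called lower without G05 and H05 (-1.93), in column 01 (-1.47) and in column 02 (-1.99).

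Embryos G05, H05 and A02 of collection 2 stood apart from the other embryos of their collection, and B02 lay at an extreme of its own. On the first principal component of log2 CPM, which held 35% of the variance, collection 1 ranged from -136.6 to -50.4. G05 lay at -78.6, within that range, H05 at -23.0 and A02 at -7.7, whereas the remaining 11 embryos of collection 2 lay between 36.0 and 145.2. B02 had the lowest value on the second component, -178.1, which held 11%. Column 05 also held embryos of the maternal deletion group, and results that changed most without G05 and H05 are also given without them. These wells were singled out by their expression, so leaving them out is a description and not an independent check.

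**Figure D1:**
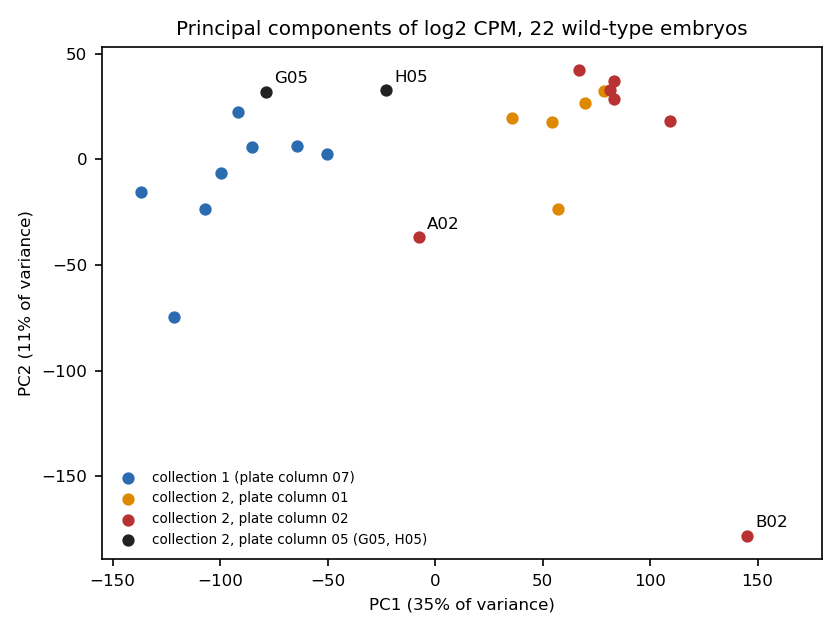
Principal components of log2 CPM in the 22 wild-type embryos, with the share of variance on each axis and points coloured by plate column. Collection 1 (column 07) lies between -136.6 and -50.4 on the first component, and G05, H05 and A02 of collection 2 lie nearer to it than the other 11 embryos.

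The collections differed at many genes in both directions. In edgeR's quasi-likelihood test with Benjamini-Hochberg adjustment, 2692 of 6993 tested genes (38.5%) passed an adjusted p of 0.05. Of these, 1504 were higher in collection 2 (21.5% of the tested genes) and 1188 were lower (17%). At least 2-fold differences made up 1407 and 1075 of the calls. The values of the collections did not overlap at all for 220 genes (3.15%). With counts scaled by library totals alone, the share of calls that were higher in collection 2 was 73.6% instead of 55.9%, and the median log2 difference of all genes was 0.48 instead of 0.08. Among libraries with at least 500000 counts, which leave out all of column 01, 812 of 9858 tested genes were called. That fit kept A07, B07, D07 and H07 of collection 1, and G05 and H05 were among its collection 2 embryos.

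Leaving out G05 and H05 gave 3261 calls among 6648 genes, with 1753 higher (26.4%) and 1508 lower (22.7%). The embryos of column 01 and of column 02 each differed from collection 1, with 2316 calls of 5064 genes and 3018 of 6800. Within collection 2, column 02 against column 01 gave 0 calls of 6915 genes in edgeR, with 582 (8.42%) at an unadjusted p under 0.05. That comparison was not run in another tool.

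**Figure D2:**
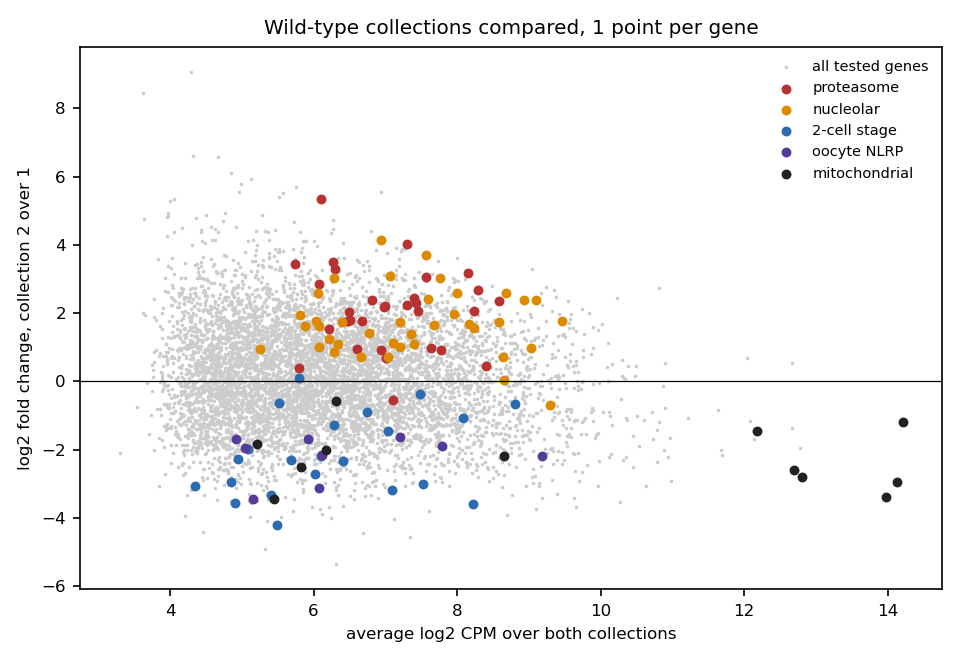
Log2 fold change of collection 2 over collection 1 against the average log2 CPM, 1 point per tested gene, with 5 gene lists coloured. Proteasome and nucleolar genes lie mostly above 0, and 2-cell stage, oocyte NLRP and mitochondrial genes mostly below it.

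Smarca5 (chromosome 8, positions 80698507 to 80739497, GRCm38), the gene deleted in the other arm of the experiment, encodes the motor of the ISWI chromatin remodellers. Its level was 235 CPM in the lowest, 403 in the median and 903 in the highest embryo of collection 1, and 184, 425 and 757 in collection 2. The collections overlapped over most of their range, and no embryo was without the transcript. The log2 difference was -0.12 (SE 0.29, edgeR adjusted p = 0.769). G05 and H05 held the lowest values, 184 and 186 CPM. The sign of this difference changed with the scaling and with several single embryos left out, and with offsets for GC content and transcript length it was 1.37 (adjusted p = 0.00159). Of 11 tested genes of ISWI complexes, 2 passed the test, a smaller share than the 38.5% of all tested genes. Baz1a, a partner subunit of SMARCA5, was higher in collection 2 at 513 ± 174 CPM (SD, n = 14) against 285 ± 88.6 (n = 8). Cecr2, a subunit of another ISWI complex, was lower at 591 ± 125 against 1042 ± 224 CPM and lost its call with the GC and length offsets (log2 difference -0.24, adjusted p = 0.414).

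Among transcripts that the egg makes and stores, members of several lists were lower in collection 2, against 17% of all tested genes, while the call of Gdf9 depended on G05. Of 6 tested genes for secreted factors and the zona pellucida, 2 were lower and 1 was higher in collection 2, near the shares of all tested genes (17% and 21.5%). Of 14 oocyte factors, 6 were lower, and Tdrd12, of the piRNA pathway, was higher. All 9 tested oocyte NLRP genes had negative differences, and 5 passed the test. Of 18 genes for storage and decay of maternal mRNA, 9 were lower and 1 was higher. The median log2 differences of these lists were -0.998, -1.17, -1.96 and -0.98, against 0.08 over all tested genes. Without G05 and H05 the first list gave 4 lower and 1 higher of 5 with a median of -2.33, and oocyte factors gave 10 lower and 0 higher of 13 with -2.30, so that Tdrd12 was no longer called. Over all genes of that fit 22.7% were lower and 26.4% higher. In counts scaled to a library total, fewer molecules of a transcript and a larger amount of other RNA cannot be told apart.

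Gdf9 (chromosome 11, positions 53431023 to 53437904), an oocyte growth factor of the TGF-beta family, is a marker of stored maternal RNA. Collection 1 held 40.7 CPM in its lowest, 159 in its median and 318 in its highest embryo, and collection 2 held 0, 36.0 and 752. Of the collection 2 embryos, 9 lay below every embryo of collection 1, and G05 (752 CPM) and H05 (311 CPM) were the 2 highest. The log2 difference over all embryos was -0.64 (SE 0.74, edgeR adjusted p = 0.515). It was -1.58 (edgeR adjusted p = 0.0287) without G05 and -2.33 (adjusted p = 0.000673) without G05 and H05. Leaving out the 2 highest embryos of collection 2 lowers its values by construction, so no support is drawn from these fits. Column 01 and column 02 gave -1.88 and -2.38 against collection 1.

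Bmp15 (chromosome X, positions 6314107 to 6320721), the partner of GDF9 in egg to follicle signalling, was lower in collection 2. It ranged from 576 CPM through a median of 1973 to 2819 in collection 1, and from 1.57 through 98.1 to 901 in collection 2. Of the 14 embryos of collection 2, 12 lay below every embryo of collection 1, and the other two were G05 and H05. Between the collections the log2 difference was -2.93 (SE 0.60, edgeR adjusted p = 0.000587). Oosp1, an oocyte-secreted protein, differed by -2.10 (adjusted p = 0.029), a call lost in 3 of 22 fits that left out 1 embryo (E07, C07 or D07, adjusted p up to 0.0725). Zp3, the sperm-binding protein of the zona, went the other way at 118 ± 70.7 against 36.3 ± 32.8 CPM, with a log2 difference of 1.68 (adjusted p = 0.00967). Zp3 lost its call with the GC and length offsets, at 0.96 (adjusted p = 0.128).

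Spin1, a reader of histone methylation that is abundant in the egg, stood at 13238 ± 6009 CPM in collection 1 and 3438 ± 4193 in collection 2, where 12 embryos lay below the whole of collection 1. Its log2 difference was -1.95 (SE 0.44, edgeR adjusted p = 0.00101). Rfpl4, a ubiquitin ligase of the oocyte, differed by -3.08 (adjusted p = 0.0148). Without embryo C07, the highest of collection 1, Rfpl4 gave -2.23 (adjusted p = 0.0691). Omt2b, an abundant transcript of the oocyte, gave -1.35 (adjusted p = 0.0353) and lost its call in 19 of 22 fits without 1 embryo, at adjusted p values of 0.0515 to 0.0719.

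The oocyte NLRP genes encode cytoplasmic proteins of the egg. Nlrp9c, the member with the highest mean CPM over the 22 embryos, ranged from 661 CPM through 1183 to 1516 in collection 1 and from 66.6 through 179 to 942 in collection 2, and 13 of 14 embryos lay below collection 1. On the log2 scale the difference was -2.17 (SE 0.38, edgeR adjusted p = 6.11e-05). Nlrp14 and Nlrp4b differed by -1.63 and -3.44. The score of this list, its mean log2(CPM + 1), was 5.20 to 7.38 in collection 1. It was 1.52 to 6.83 in collection 2, where G05 held the highest value and H05 the next at 5.20. Without G05 and H05, 9 of 9 NLRP genes were lower, against 22.7% of all genes of that fit, with a median of -2.60.

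Genes that act in maternal mRNA decay were among those that were lower in collection 2. Cnot7, a deadenylase of the CCR4-NOT complex, ranged from 889 CPM through 1855 to 3125 in collection 1 and from 69.2 through 207 to 1226 in collection 2. Only G05 of collection 2 reached the range of collection 1. The fitted log2 difference was -2.65 (SE 0.41, edgeR adjusted p = 1.60e-05). Btg4, the adaptor that brings this complex to maternal mRNA, differed by -2.31 (adjusted p = 0.0283), and by -2.03 (adjusted p = 0.065) without C07. Pan3, of another deadenylase, differed by -1.12 (adjusted p = 0.00909). The exception in this list was Igf2bp2, an mRNA-binding protein, at 1.45 (adjusted p = 0.0242). With the GC and length offsets, 6 genes of the list were lower and 5 were higher, against 9 and 1 without them. Over all genes of that fit 14.8% were lower and 20.1% higher. The median of the list was -0.55 with the offsets and -0.98 without them.

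Of 10 tested genes of the subcortical maternal complex and other maternal effect proteins, 1 was lower and 2 were higher. Over all tested genes the shares were 17% and 21.5%. Zbed3, a member of that complex, gave -1.70 (edgeR adjusted p = 0.0372), and lost its call without C07 (-1.30, adjusted p = 0.113) or D07 (-1.52, adjusted p = 0.0772). Trim28, the corepressor that keeps imprints and retroelements silent, gave 1.61 (adjusted p = 0.00111) and 1.02 (adjusted p = 0.0664) with the GC and length offsets. Dppa3, which protects maternal DNA methylation, gave 0.69 (adjusted p = 0.0556) and passed in 13 of 22 fits without 1 embryo. Without G05 and H05 the list gave 3 lower and 3 higher of 10, against 22.7% and 26.4% of all genes of that fit. These counts were near the shares of all genes, so no direction is read for this group.

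Most tested genes of the transient 2-cell programme were lower in collection 2. Of 40 listed genes, 29 were in the table and 22 were tested. Of these, 15 were lower and 0 higher, against 17% and 21.5% of all tested genes. The median log2 difference was -2.29. The score of the list ranged from 5.23 through 6.04 to 6.98 in collection 1. In collection 2 it ranged from 1.98 through 2.66 to 6.31, and 13 of 14 embryos lay below collection 1. G05 held 6.31, H05 5.08 and A02 4.75. Without G05 and H05, 16 of 19 tested members were lower, against 22.7% of all genes of that fit, and the median was -3.13.

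**Figure D3:**
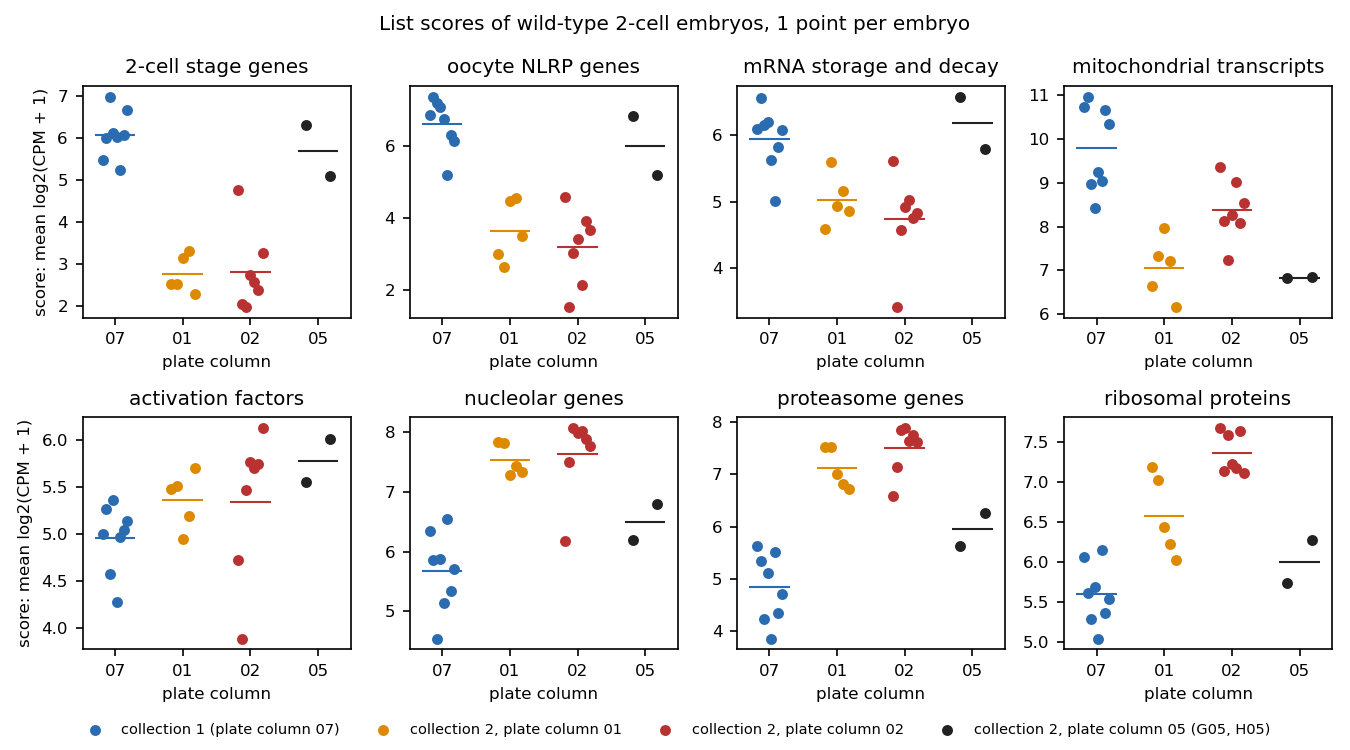
List scores, the mean log2(CPM + 1) over the members, in each wild-type embryo by plate column, with bars at column means. The 2-cell stage and NLRP scores of G05 and H05 (column 05) lie near collection 1, and their mitochondrial scores, 6.83 and 6.85, lie below all 8 embryos of collection 1.

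Zscan4d (chromosome 7, positions 11161374 to 11166182), a telomere regulator and the standard marker of this programme, did not pass the test over all embryos. Collection 1 held 5.47 CPM in its lowest, 141 in its median and 370 in its highest embryo, and collection 2 held 0, 33.0 and 426. The low value of collection 1 was that of G07, with 1 count, and the high value of collection 2 was that of G05. The log2 difference was -0.91 (SE 0.64, edgeR adjusted p = 0.264). It was -1.44 (edgeR adjusted p = 0.039) without G05 and -1.60 (adjusted p = 0.0253) without G05 and H05. Leaving out the highest embryo of collection 2 lowers its values by construction, so no support is drawn from these fits. Zfp352, a zinc finger gene of retrotransposed origin, likewise gave -1.09 (adjusted p = 0.0758) over all embryos and -1.38 (adjusted p = 0.0122) without G05.

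Members of a family of EIF1A-like genes on chromosome 12 included the largest difference of this list. Gm8300 (positions 87514316 to 87518253) ranged from 132 CPM through 382 to 729 in collection 1 and from 0 through 24.4 to 315 in collection 2, where 13 of 14 embryos lay below collection 1. Between the collections the log2 difference was -3.003 (SE 0.66, edgeR adjusted p = 0.0009). Gm2016 (positions 88270640 to 88274500) stood at 723 ± 391 CPM in collection 1 and 56.9 ± 107 in collection 2, with 0 counts in 3 embryos of column 01, and differed by -3.58 (adjusted p = 0.00131). Gm4027 differed by -4.21 (adjusted p = 0.000136). These genes are near-identical copies, and the treatment of reads with several matches is unknown, so values of single copies are uncertain. Sp110, a nuclear body protein, gave -0.68 (adjusted p = 0.0218) and lost its call in 9 of 22 fits without 1 embryo.

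The Obox homeobox genes split. Obox3 (chromosome 7, positions 15479825 to 15639902), transcribed from the embryo's genome, ranged from 42.5 CPM through 66.8 to 153 in collection 1 and from 0 through 44.3 to 111 in collection 2. Of the collection 2 embryos, 7 of 14 lay below collection 1, and the rest overlapped it. On the log2 scale the difference was -0.78 (SE 0.51, edgeR adjusted p = 0.229), with 0.04 for column 01 and -1.34 for column 02 against collection 1. Obox6, also transcribed in the embryo, ranged from 148 CPM through 344 to 548 in collection 1 and from 219 through 920 to 1213 in collection 2, and 11 embryos lay above collection 1. Its log2 difference was 1.32 (SE 0.30, adjusted p = 0.000894). Obox5, a maternal member, gave -2.31 (adjusted p = 0.0222), and -1.98 (adjusted p = 0.0571) without C07. It was the called gene among 3 maternal members. Without G05 and H05 all 3 were lower, against 22.7% of all genes of that fit, with a median of -3.28. Copies within this family are similar in sequence too.

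**Figure D4:**
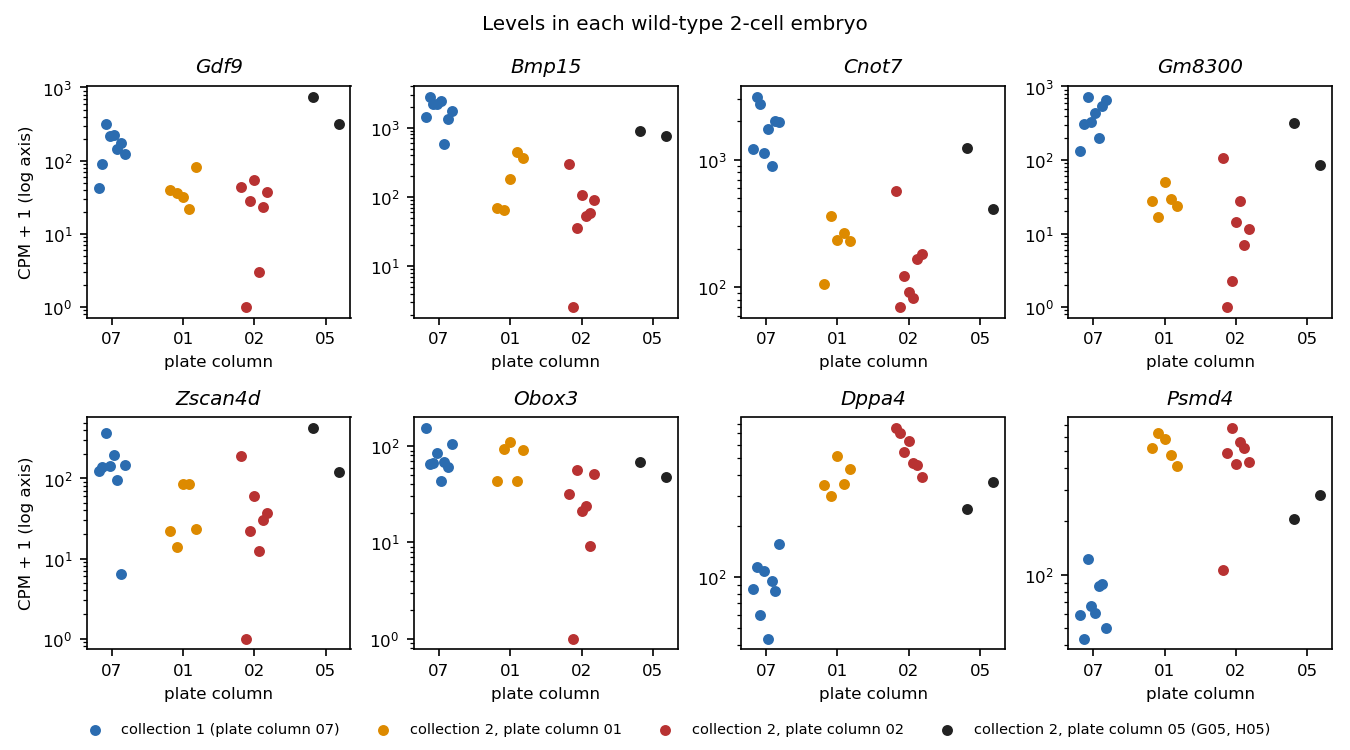
CPM + 1 on a log axis for 8 genes in each wild-type embryo, by plate column. G05 and H05 (column 05) hold the 2 highest Gdf9 and Bmp15 values of collection 2, and all 14 embryos of collection 2 lie above collection 1 for Dppa4.

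Of 15 tested factors tied to genome activation and early cleavage, 5 were higher and 0 lower over all embryos, against 21.5% and 17% of all genes, with a median of 0.92. Without G05 and H05, 6 of 15 were higher and 2, Hsf1 and Pou5f1, were lower, against 26.4% and 22.7% of all genes of that fit. Column 01 gave 6 higher and 1 lower of 13, against 1085 and 1231 of all 5064 genes of its fit. Column 02 gave 7 and 1 of 15, against 1778 and 1240 of 6800. The GC and length offsets gave 5 and 3 of 15, against 20.1% and 14.8% of all genes. Dppa4 (chromosome 16, positions 48283735 to 48294292), which binds DNA with DPPA2, ranged from 42.5 CPM through 89.2 to 156 in collection 1 and from 252 through 446 to 753 in collection 2. The collections did not overlap. The fitted log2 difference was 2.31 (SE 0.28, edgeR adjusted p = 7.02e-07), and Dppa2 differed by 1.35 (adjusted p = 0.0108). Tead4, needed for the trophectoderm lineage, stood at 60.9 ± 45.4 against 5.38 ± 6.86 CPM, but was at or under 3 counts in 6 of 8 embryos of collection 1, and its log2 difference of 3.36 (adjusted p = 0.00245) is uncertain in size. Klf17, a zinc finger factor of cleavage embryos, gave 0.61 (adjusted p = 0.0527) and passed in 13 of 22 fits without 1 embryo. Gabpa, an ETS factor, gave 0.57 (adjusted p = 0.0973) and 1.65 (adjusted p = 0.000182) with the GC and length offsets.

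Nucleolar genes, which serve ribosome assembly, were higher in collection 2. Of 39 tested, 31 were higher and 0 lower, against 21.5% and 17% of all tested genes. Their median log2 difference was 1.65, and 12 of 14 embryos of collection 2 had a list score above the highest of collection 1. The 2 embryos below it were A02 (6.18) and G05 (6.19), against a highest value of 6.54 in collection 1. Nhp2 (chromosome 11, positions 51619735 to 51623714), a core protein of box H/ACA ribonucleoproteins, ranged from 59.5 CPM through 152 to 250 in collection 1 and from 398 through 814 to 1160 in collection 2. The collections did not overlap. The log2 difference was 2.37 (SE 0.27, edgeR adjusted p = 3.93e-07). Wdr43, of the small subunit processome, differed by 1.78 (adjusted p = 9.05e-05), and Dkc1, the pseudouridine synthase that works with NHP2, by 0.99 (adjusted p = 0.016). Ftsj3, an rRNA-processing methyltransferase, had the largest difference of the list at 4.15 (adjusted p = 8.57e-05), with at most 3 counts in 4 of 8 embryos of collection 1. Npm1, the abundant nucleolar chaperone, was the single tested member with a negative difference, at -0.68 (adjusted p = 0.0524), and 0.01 (adjusted p = 0.972) for column 02 alone.

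Ribosomal protein genes gave 57 higher and 0 lower of 83 tested, with a median of 1.33. The shares of all tested genes were 21.5% and 17%. Rplp0, of the ribosomal stalk, gave -0.23 (edgeR adjusted p = 0.429), and Rpl38, of the large subunit, 3.43 (adjusted p = 0.000231) with at most 3 counts in 5 of 8 embryos of collection 1. With offsets for GC content and transcript length 31 genes were higher and 5 lower, with a median of 0.72, against 20.1% higher and 14.8% lower among all 6948 genes of that fit. Rpl41, at 1.38 (adjusted p = 0.000258), became 0.21 (adjusted p = 0.5). The nucleolar list gave 25 higher and 0 lower with a median of 1.48 in the same fit.

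Proteasome genes showed the largest median of the lists that were higher in collection 2. Of 31 tested, 24 were higher and 0 lower, against 21.5% and 17% of all tested genes, with a median of 2.18. With the GC and length offsets, 25 were higher and 0 lower (median 1.89), against 20.1% and 14.8% of all genes of that fit. The list score ranged from 3.86 through 4.91 to 5.63 in collection 1 and from 5.63 through 7.33 to 7.89 in collection 2, where G05 held the lowest value and H05 the next at 6.27. Psmd4 (chromosome 3, positions 95032694 to 95042614), a ubiquitin receptor of the regulatory particle, ranged from 42.6 CPM through 62.4 to 122 in collection 1 and from 105 through 478 to 670 in collection 2. A02, at 105 CPM, was the single embryo within the range of collection 1. Between the collections the log2 difference was 2.67 (SE 0.32, edgeR adjusted p = 6.75e-07), and that of Psmb1, a core subunit, 2.35 (adjusted p = 7.92e-06).

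Psma7 (chromosome 2, positions 180036373 to 180042433), a ring subunit of the core, had the largest difference of the list. Its counts in collection 1 were 0 in 4 embryos and at most 5 in the others, or 0 to 5.07 CPM. In collection 2 it ranged from 3.998 CPM through 81.4 to 248, and G05, with 7 counts, was the single embryo within the range of collection 1. The log2 difference of 5.33 (SE 0.76, edgeR adjusted p = 5.69e-06) rests on few counts in collection 1. Psma3, another ring subunit, gave 0.46 (adjusted p = 0.261).

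All 8 subunits of the CCT chaperonin, which folds actin and tubulin, were tested, and 7 were higher and 0 lower, with a median of 1.52. Cct5 stood at 239 ± 141 against 46.4 ± 29.8 CPM and differed by 2.37 (edgeR adjusted p = 7.73e-05), Tcp1 by 1.52 (adjusted p = 0.00134) and Cct3 by 0.90 (adjusted p = 0.0277). The subunit that did not pass was Cct8, at 0.42 (adjusted p = 0.193). Of 12 tested heat shock genes, 5 were higher and 1 lower, against 21.5% and 17% of all tested genes. Their median was 0.57. Hspa5, the chaperone of the endoplasmic reticulum, did not overlap between the collections, at 107 to 225 and 274 to 857 CPM, and differed by 1.78 (adjusted p = 5.69e-06). Hspa8, the constitutive cytosolic member, differed by 1.94 (adjusted p = 4.37e-05). Hsp90ab1, a cytosolic chaperone, differed by 1.21 (adjusted p = 0.00506), and by 0.77 (adjusted p = 0.1) with the GC and length offsets. Hspe1, a mitochondrial cochaperonin, went the other way at -1.50 (adjusted p = 0.021), and lost its call without B07 (-1.28, adjusted p = 0.0709) or C07 (-1.28, adjusted p = 0.0655).

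Transcripts of the mitochondrial genome were lower in collection 2. Of 12 tested, 11 were lower and 0 higher, against 17% and 21.5% of all tested genes. The median was -2.34, and 11 of 14 embryos had a list score below the lowest of collection 1. mt-Co1, a catalytic subunit of cytochrome oxidase, ranged from 10660 CPM through 33618 to 81010 in collection 1 and from 1804 through 3254 to 8031 in collection 2, without overlap. On the log2 scale the difference was -3.37 (SE 0.32, edgeR adjusted p = 4.42e-08), and those of mt-Nd1 and mt-Nd5, of complex I, -2.94 (adjusted p = 4.32e-07) and -2.81 (adjusted p = 1.94e-07). mt-Co3, another subunit of the oxidase, had the largest difference of the list at -3.43 (adjusted p = 3.34e-05). G05 and H05 scored 6.83 and 6.85, below the whole of collection 1 (8.43 to 10.97). A02 held 9.36, the highest of collection 2. mt-Cytb, at -1.19 (edgeR adjusted p = 0.00706), gave -0.45 (adjusted p = 0.14) with the GC and length offsets. In that fit 6 of 12 mitochondrial genes were lower, against 14.8% of all genes.

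Cell cycle genes were called in both directions. Of 19 tested cyclins and division kinases, 6 were higher and 4 lower, against 21.5% and 17% of all tested genes. Cdc20, the activator of the anaphase-promoting complex, stood at 1182 ± 625.3 CPM against 276 ± 123 and differed by 2.105 (edgeR adjusted p = 0.000152). Cdc25a, a phosphatase that activates cyclin-dependent kinases, differed by 2.22 (adjusted p = 0.0188), with at most 3 counts in 4 of 8 embryos of collection 1. Ccnb1, the mitotic cyclin, gave 0.44 (adjusted p = 0.11). Ccna2 gave -0.63 (adjusted p = 0.0178), and lost its call in 3 of 22 fits without 1 embryo (A07, F07 or E07, adjusted p up to 0.0877). Ccne2, a G1/S cyclin, gave -1.45 (adjusted p = 0.00146) and -0.06 (adjusted p = 0.886) with the GC and length offsets. Of 8 tested stress and p53 response genes, 1 was higher and 0 lower, against the same shares of all tested genes. That gene, Sesn2, gave 1.12 (adjusted p = 0.0144), and 0.12 (adjusted p = 0.769) with the offsets. Of 11 markers of later embryonic lineages, 2 were tested and Fgf4, a growth factor of the inner cell mass, was higher (1.58, adjusted p = 0.0419), a call lost with the offsets (1.05, adjusted p = 0.198).

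The 10 largest differences upward among called genes whose mean log2 CPM reached 4 were those of Fam65c, Pkn3, Suclg1, Ict1, Gemin4, Ndufa12, Commd4, Ttyh2, AL591129.1 and Jkamp. Each was at or under 3 counts in 7 or 8 of the 8 embryos of collection 1, so their sizes and order are uncertain. Fam65c had 0 counts in all of collection 1 and a mean of 26.6 CPM in collection 2. That mean was 32.7 times a floor of 3 counts pooled over collection 1 (0.815 CPM), which is not a bound for single embryos. In collection 2, C01, E01, F01 and G05 also had 0 counts, H05 had 1 and A02 had 3. Ttyh2, a chloride channel family member, stood at 2.85 ± 4.51 CPM and 189 ± 124 CPM (edgeR adjusted p = 5.69e-06). Gemin4, of the SMN complex that assembles spliceosomal particles, stood at 0.664 ± 0.977 and 52.9 ± 40.01 CPM.

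The 10 largest differences downward were those of Gm14929, Skint6, Gm12823, Ttc30b, Olfr787, Gm4027, A630095E13Rik, Pnrc1, Zfp709 and Zfp735. Pnrc1, a cofactor in mRNA decapping, ranged from 177 CPM through 287 to 795 in collection 1 and from 0 through 9.54 to 79.1 in collection 2, without overlap. The fitted log2 difference was -4.04 (SE 0.59, edgeR adjusted p = 7.31e-06). Ttc30b, which takes part in transport along cilia, differed by -4.45 (adjusted p = 7.79e-06), also without overlap. Skint6 and Gm12823 overlap on opposite strands, and the counts may not separate strands, so they are not 2 separate observations.

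Genes that were higher in collection 2 had shorter and more GC-rich transcripts. The median GC content of the longest annotated transcript was 51.0% among genes called higher, 43.5% among those called lower and 48.6% among the rest, and the median lengths were 2573, 4290 and 3560 bases. Across genes, which are not independent, the rank correlation of the log2 difference was 0.386 with GC content and -0.28 with length, and these describe a pattern that libraries and depth share. In the fit with GC and length offsets, 2424 of 6948 genes were called, and 1684 of them were called without the offsets too, 1675 with the same sign. Between columns 02 and 01 of collection 2 the correlation with GC content was -0.197.

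The bases before the start site were read for members that carry these differences, from RefSeq's table on GRCm38.p6, which held 5060 of the tested genes. The windows hold 250 bases that end just before the start, written 5′ to 3′ on the gene's strand, and capitals mark CCGGAAG or its reverse complement, the core recognized by ETS factors. Psmd4 (chr3:95042615-95042864, minus strand) and Psmd11 (chr11:80428365-80428614, plus strand), a subunit of the proteasome lid, are shown as proteasome genes with the motif. Psma7 (chr2:180042465-180042714, minus strand) is shown as the proteasome gene with the largest difference, Bmp15 (chrX:6320725-6320974, minus strand) for the maternal transcripts and Gm4027 (chr12:87618659-87618908, plus strand) for the 2-cell programme.
Psmd4: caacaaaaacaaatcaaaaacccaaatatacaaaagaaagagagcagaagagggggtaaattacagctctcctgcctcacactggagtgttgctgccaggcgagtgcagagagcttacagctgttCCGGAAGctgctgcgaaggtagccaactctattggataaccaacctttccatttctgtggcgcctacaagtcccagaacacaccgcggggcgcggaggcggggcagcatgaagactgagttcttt
Psmd11: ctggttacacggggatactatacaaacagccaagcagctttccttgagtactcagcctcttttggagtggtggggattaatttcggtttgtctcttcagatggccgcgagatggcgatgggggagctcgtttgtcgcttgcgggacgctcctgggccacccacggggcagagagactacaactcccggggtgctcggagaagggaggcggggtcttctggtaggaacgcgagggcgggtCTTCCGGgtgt
Psma7: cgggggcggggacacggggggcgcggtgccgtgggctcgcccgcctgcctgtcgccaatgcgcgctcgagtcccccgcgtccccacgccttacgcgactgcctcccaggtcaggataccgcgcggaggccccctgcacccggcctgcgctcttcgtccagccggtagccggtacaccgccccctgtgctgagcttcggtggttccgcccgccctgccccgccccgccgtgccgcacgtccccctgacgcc
Bmp15: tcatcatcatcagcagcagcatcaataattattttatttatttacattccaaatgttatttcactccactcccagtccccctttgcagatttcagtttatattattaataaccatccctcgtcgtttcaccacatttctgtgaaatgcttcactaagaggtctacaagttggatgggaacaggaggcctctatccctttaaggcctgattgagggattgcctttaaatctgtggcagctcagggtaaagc
Gm4027: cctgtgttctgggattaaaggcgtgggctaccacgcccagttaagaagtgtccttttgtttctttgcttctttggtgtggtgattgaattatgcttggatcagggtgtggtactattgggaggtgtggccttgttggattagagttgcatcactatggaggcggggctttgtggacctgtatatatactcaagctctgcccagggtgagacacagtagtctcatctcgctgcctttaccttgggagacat
The Psmd4 and Psmd11 windows held the motif 1 time each, and the 3 others did not. Their GC contents were 50.8% and 59.2%, against 77.2% for Psma7, 40.4% for Bmp15 and 48.8% for Gm4027. CCGGAAG on either strand lay in 22.9% of 1072 windows of genes called higher, 12.7% of 841 of genes called lower, 16.5% of 3147 of genes not called and 7.05% of all 27025 windows. It lay in 32% of 25 proteasome windows, in 24.2% of 33 nucleolar windows and in 29.5% of 61 ribosomal protein windows. Among 11 windows of 2-cell genes and 7 of NLRP genes the share was 0. Another 3 motifs were searched on either strand. CCAAT had shares of 38.3% and 37.2% in genes called higher and lower, and 34.5% in all windows. The GC box GGGCGG had shares of 57.6%, 64.4% and 32.9% in the same order. The TATA box TATAAA had shares of 6.53%, 4.28% and 13%. GC content at the start did not follow that of the transcripts, with medians of 58.8% in genes called higher and 62.8% in genes called lower. A match describes letters in a window and was not tested as a binding site.

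The number of genes detected at equal depth did not differ detectably. After each library had been thinned to 100000 counts, collection 1 ranged from 6969 through 7624 to 8723 genes with a count, and collection 2 from 5506 through 7984 to 8786. The means were 7721 ± 524 and 7803 ± 813, a difference of 81.98 genes (two-sided exact permutation test, p = 0.816). B02, at 5506, was the single embryo of collection 2 below collection 1. With at least 3 counts required, collection 2 held 572 genes more on average (exact permutation p = 0.00671), and 6 of its embryos lay above collection 1.

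Whether embryos with more Gdf9 held less of the activation markers was asked within each collection, in 6 relations of log2(CPM + 1) with p adjusted over the 6. In collection 1, Gdf9 and Obox3 gave r = -0.703 (exact permutation p = 0.0576, adjusted p = 0.0864) and rho = -0.524 (exact p = 0.197, adjusted 0.295), and r = -0.342 (exact p = 0.537) without A07 and C07, the 2 embryos farthest from the Gdf9 median. Gdf9 and Zscan4d gave r = 0.0866 (exact permutation p = 0.819, adjusted p = 0.819) and rho = 0.548 (exact p = 0.171, adjusted 0.295). Obox3 and Zscan4d gave r = 0.103 (exact permutation p = 0.759, adjusted p = 0.819) and rho = -0.0714 (exact p = 0.882). Without the 2 embryos farthest from the median of the first gene these gave -0.116 (exact p = 0.854) and 0.0246 (exact p = 0.947). No relation in collection 1 passed.

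In collection 2 the same relations were positive. Gdf9 and Zscan4d gave r = 0.824 (permutation p = 0.00063, adjusted p = 0.00378) and rho = 0.622 (permutation p = 0.0203, adjusted 0.122). Gdf9 and Obox3 gave r = 0.672 (permutation p = 0.0129, adjusted p = 0.0388) and rho = 0.38 (permutation p = 0.18, adjusted 0.295). Obox3 and Zscan4d gave r = 0.63 (permutation p = 0.0308, adjusted p = 0.0617) and rho = 0.209 (permutation p = 0.47, adjusted 0.565). Without G05 and B02, the 2 embryos farthest from the Gdf9 median, the first relation gave r = 0.492 (permutation p = 0.101) and the second r = 0.3 (permutation p = 0.332). Without B02 and G02, the third gave r = -0.00577 (permutation p = 0.986). These relations therefore rest on those embryos, of which B02 had 0 counts for all 3 genes. With B02 kept and G05 and H05 left out, the first gave r = 0.743 and the second 0.767 (permutation, adjusted p = 0.0404 for both).

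Maternal deletion embryos had been collected and sequenced in the same 2 collections, 13 and 15 embryos at the same minimum depth, and share no library with the wild-type comparison. Collection 2 against 1 gave 875 calls of 8165 genes (10.7%), 509 higher (6.23%) and 366 lower (4.48%). Over 5865 genes tested in both genotypes, the log2 differences correlated with r = 0.60 and rho = 0.602 across genes, which share lanes and are not independent. Of the 5865 genes, 2167 were called in wild type and 808 in the deletion embryos. In both, 528 were called, or 24.4% of the wild-type and 65.4% of the deletion calls, and 519 of them had the same sign. Over all 5865 genes, 70.6% had the same sign. In the deletion embryos, nucleolar genes gave 10 higher and 1 lower of 32 with a median of 1.58. Proteasome genes gave 10 and 0 of 30 with 1.25, and ribosomal protein genes 20 and 0 of 66 with 1.51. Oocyte NLRP genes gave 3 lower of 10, with a median of -1.21, and mitochondrial transcripts 2 lower of 13, with -0.77. These values include A04, a well labelled maternal deletion that was left out of other fits because of its expression. Its own levels are not given here, and its label was kept. Without A04 there were 711 calls of 7851 genes, 372 higher and 339 lower. The correlation r was 0.523 over 5700 genes and rho 0.519, and 379 of 388 genes called in both genotypes had the same sign. Nucleolar genes then gave 6 higher and 1 lower of 30 with a median of 0.89, proteasome genes 5 and 0 of 29 with 0.82, and ribosomal protein genes 9 and 0 of 58 with 1.08.

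**Figure D5:**
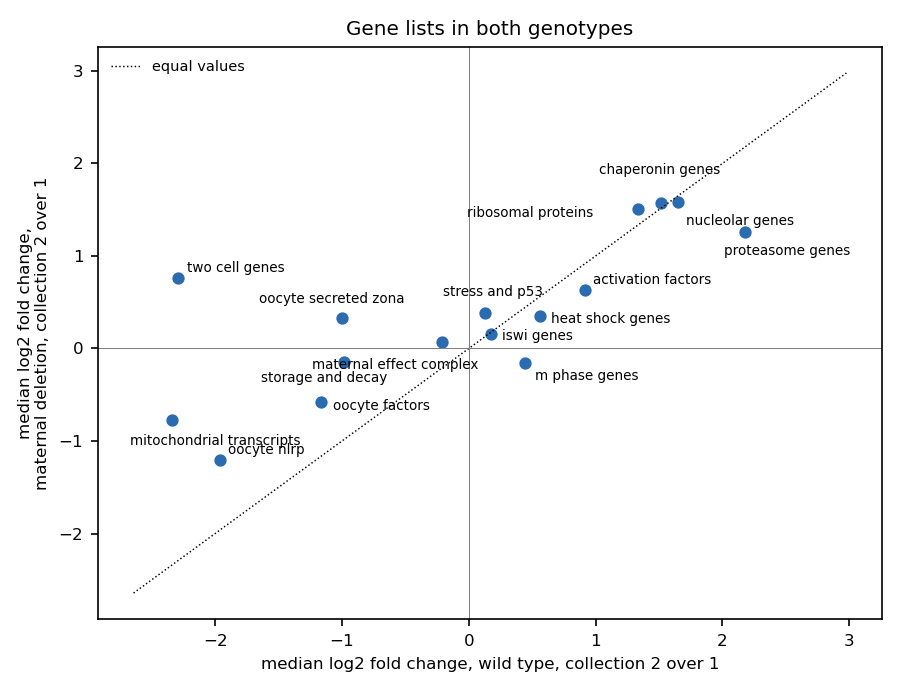
Median log2 fold change of each gene list between collections in wild-type embryos (horizontal) and in maternal deletion embryos (vertical), 1 point per list with at least 5 tested members in each, and a dotted line at equal values. The ribosomal protein, chaperonin and nucleolar lists lie near the line with A04 included, and have deletion medians of 1.08, 1.26 and 0.89 without it. The 2-cell genes lie at -2.29 and 0.76.

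The 2-cell list had a median of -2.29 over 22 tested members in wild type and of 0.76 over the 9 members that passed the filter in the deletion embryos, so these medians are over different genes. The score over the list in deletion embryos ranged from 0.73 through 2.20 to 4.97 in collection 1 and from 0.32 through 1.75 to 6.503 in collection 2, against medians of 6.04 and 2.66 in wild type, and 0 of 9 tested members were called. Over all embryos, the interaction of collection and genotype passed for 121 of 11352 genes (1.07%), with 1768 at an unadjusted p under 0.05, and for 0 of 27 genes of the 2-cell list. Without A04 alone it passed for 299 of 10939 genes and for 1 of 27. Without G05, H05 and A04 it passed for 1267 of 10826 genes (11.7%), with a lower value of the wild-type difference for 1053 (9.73%) and a higher one for 214 (1.98%). Since these wells were chosen for expression that included the 2-cell genes, leaving them out enlarges the wild-type difference by construction, and no support is drawn from these counts. In that fit 14 of 27 genes of the 2-cell list were lower, as were 4 of 9 secreted and zona genes, 3 of 10 NLRP genes, 3 of 19 oocyte factors and 3 of 13 mitochondrial transcripts, and 5 of 31 proteasome and 3 of 39 nucleolar genes were higher. Obox3 was among the 121, with a wild-type difference lower than that of the deletion embryos by 7.77 on the log2 scale (edgeR adjusted p = 0.0358). Its transcript did not pass the filter on low counts in the deletion embryos, so the size of this value is uncertain. Psma7 was another, at 4.02 (adjusted p = 0.0268), with 5.33 in wild type and 1.49 (adjusted p = 0.0507) in the deletion embryos.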

How the data were processed

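RNA of single plate wells was sequenced by the authors and deposited as 1 table of raw read counts per gene. Reads had been trimmed with Trim Galore 0.6.5 and cutadapt 2.3 and aligned with HISAT2 2.1.0 to GRCm38, per the submitters' processing notes. Whether counting used strand, multiply aligned reads or duplicates is not given in the sources used here. Among low counts of the 22 libraries odd values outnumbered even ones (24043 values of 1, 3775 of 2, 14600 of 3 and 2864 of 4), so a count of 1 may not be 1 fragment. Lines of the same gene ID were summed, which gave 25900 genes, and libraries under 100000 counts were left out.

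Genes passed edgeR's filter on low counts, and collections were compared with its quasi-likelihood test (edgeR 4.0.16, R 4.3.3, TMM scaling, Benjamini-Hochberg adjustment, threshold 0.05). The genotypes were compared by an interaction term. DESeq2 1.42.0 was an alternative. CPM are counts scaled to a TMM-adjusted total of 1000000. On simulated counts of 6542 genes for the wild-type comparison, 58.06% of 93 genes changed by 2 on the log2 scale and 82.61% of 92 changed by 3 were called. P-values measure the spread between these embryos, which come from 1 pool per collection. Relations and detected genes were tested with SciPy 1.17.1 and NumPy 2.4.6 in Python 3.11.15.

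The embryos and gene lists were chosen with earlier results of these data known. Named genes are Smarca5, Gdf9, Zscan4d and Obox3, the 10 largest differences in each direction among called genes whose mean log2 CPM reached 4, and in each list those of highest average CPM and the largest called difference in each direction. Alternatives were the scaling, the tool, the filter, the minimum depth, thinning, 1 fit of all groups and each embryo left out. Plate columns taken alone, offsets from a lowess on GC content and length, and the gene lists and interaction without A04 alone were chosen after seeing the data. 1 item is not reported here. Of the 80 genes described with values, 7 share exons with another gene on the same strand and 20 overlap one on the other strand.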

Additional observations from a re-analysis of the deposited data

Results flagged for a closer look

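Of 99 values looked at in the 8 embryos of collection 1, 16 had an embryo far from the others, by a gap of over 0.526 of the whole range. Chance gives that in about 1 of 20 for values well above 0, a rate that does not apply to genes with counts near 0 (Jkamp, Pkn3, Commd4, Suclg1, Ndufa12 and Ttyh2), where the value of Pkn3, Suclg1 or Ndufa12 is 1 count. C07 held the highest Obox5 (3248 CPM), Spin1 (26520 CPM) and Rfpl4 (3766 CPM) and the lowest Gabpa (88.8 CPM). F07 held the highest Ftsj3 (40.2 CPM), Psmd11 (218.8 CPM) and Ndufa12 (4.47 CPM). A07 held the highest Tcp1 (416.4 CPM), Jkamp (7.31 CPM) and Pkn3 (1.04 CPM). B07 held the highest Ttyh2 (13.2 CPM), Commd4 (7.09 CPM), Gm14929 (613 CPM) and Pnrc1 (795.4 CPM), H07 the highest mt-Co3 (336.1 CPM) and E07 the highest Suclg1 (8.51 CPM).

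For 4 named genes the difference between collections differed between wild-type and maternal deletion embryos in edgeR's interaction test. All 4 values come from the fit that includes A04. Obox3 gave -7.77 (adjusted p = 0.0358) on the log2 scale, with no separate test in the deletion embryos. Its counts there were too low for the filter, so this size is uncertain. Psma7 gave 4.02 (adjusted p = 0.0268). mt-Nd1 gave -2.02 (adjusted p = 0.0441), from -2.94 in wild type and -0.81 in the deletion embryos. Jkamp gave 4.96 (adjusted p = 0.00987), from 5.52 in wild type and 0.66 in the deletion embryos.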

How the results depend on the processing

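The count of genes called between wild-type collections was 2363 to 3158 with 1 embryo left out, against 2692 of 6993 tested. Among libraries of at least 500000 counts it was 812 of 9858 tested genes. With every library thinned to 100000 the count was 1691 of 3010 tested genes, a larger share than without thinning. In the deletion embryos it was 1586 with DESeq2's Wald test and 2033 without a filter on low counts, against 875. The interaction count was 1267 without G05, H05 and A04 and 299 without A04 alone, against 121. The difference in detected genes was 571.9 (exact permutation p = 0.00671) with at least 3 counts, -59.88 without G05 and H05 and -25.43 to 258.7 with 1 embryo left out. The sign of Smarca5 turned with total counts only (0.36), without G05 and H05 (0.082), thinned (0.032), for column 01 (0.082) and column 02 (0.35), with GC and length offsets (1.37), and with 1 embryo left out (-0.15 to 0.14). It also turned for Gdf9 at 500000 counts (0.20), Rplp0 with total counts only (0.11), Obox3 in column 01 (0.036), Npm1 in column 02 (0.014) and the cell cycle list's median in column 01 (-0.13). The cause was not tested. Of 80 named genes, 79 kept sign and side of the threshold with DESeq2 size factors and 78 with DESeq2's Wald test. At 500000 counts, where fewer embryos were compared, 33 lost their call. The count was 3448 of 17648 genes without a filter and 1865 of 11352 with all groups in 1 fit, where 35.3% of calls were higher in collection 2, against 44.5% without a filter and 55.9% in the fit described. Plate column 01 gave 46.8%. No paired analysis was possible because the collections compared are themselves the replicate numbers.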
